A study of Mus musculus with 4 samples.

Results

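L1Md_A is a young mouse subfamily of LINE-1, the autonomous retrotransposon that copies itself through an RNA intermediate. Its members were taken as every locus named exactly L1Md_A in the LINE repeat tables and in the tables of intervals beside LINE loci, which gave 5002 L1Md_A loci of 359255 LINE loci. Of these, 1256 were 5000 bp or wider, which is long enough to hold most of an element, and 3746 were shorter fragments. Reads on the element itself were counted for 1975 L1Md_A loci (768 wide and 1207 shorter) of 145916 LINE loci, and the other 3027 had reads only in an interval beside them.

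RNA was sequenced from C57BL/6J mice without Lsh (Lsh-/-) and labelled wild type (WT), in SV40-transformed fibroblasts of the adult tail tip and in whole E13.5 embryos, at mid-gestation. Each of the 4 groups was 1 library, so no difference has a replicate check, and the intervals given cover counting error only. The study's methods describe the embryos as heterozygous and homozygous for the Lsh allele, while the label of the control embryos is WT. Fewer cells that express an element and less of its RNA per cell cannot be told apart in such bulk samples.

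A complete LINE-1 carries a promoter in its 5′ part and a pair of reading frames, ORF1 for an RNA-binding protein and ORF2 for an endonuclease and reverse transcriptase. The promoter of the A subfamily is a row of tandem monomers rich in CpG, and in somatic cells it is normally methylated and silent. Lsh, encoded by Hells, is a SNF2-type chromatin remodeller needed for DNA methylation at repeats. Most LINE-1 copies were cut off at the 5′ end when they inserted, and such fragments hold no promoter of their own.

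The start of ORF2 is shown for a few copies because it makes plain how alike they are, which limits how many reads can be given to 1 copy. On the reference genome (mm9), 1253 of the wide loci could be read. The copy with the most reads among those tested that keep an ORF2 frame of 1282 codons with its stop lies at chr5:91484545-91490936 on the minus strand, 12706 bp from Ereg. The first 50 bases of its ORF2 occurred 2078 times in the genome. The first 120 bases of this frame, with the start codon in capitals, are followed by the same stretch of 3 copies on which the results turn. There, capitals mark bases that differ from the intact copy. The Ptpla copy also lacks 1 base, which is 1 of its 2 differences.
Intact copy near Ereg (chr5:91488946-91489065, minus strand): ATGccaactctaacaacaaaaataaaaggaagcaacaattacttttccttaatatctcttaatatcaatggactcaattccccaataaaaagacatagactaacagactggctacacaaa
Copy in Ptpla (chr2:13955178-13955296, minus strand): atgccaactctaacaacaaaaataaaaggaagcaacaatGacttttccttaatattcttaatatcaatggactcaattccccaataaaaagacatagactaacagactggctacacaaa
Copy near Skint5 (chr4:113742432-113742551, plus strand): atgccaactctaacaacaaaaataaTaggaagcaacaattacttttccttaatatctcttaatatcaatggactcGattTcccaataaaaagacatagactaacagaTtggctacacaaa
Copy near Olfr857 (chr9:19546438-19546557, minus strand): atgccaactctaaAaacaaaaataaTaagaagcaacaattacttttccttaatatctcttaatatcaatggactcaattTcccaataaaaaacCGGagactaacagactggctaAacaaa

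The stretch was identical to the intact copy, at 0 differences over 120 bases, in the copies at chr10:55464566-55469933 and chr3:29809982-29815193, which carry some of the largest counts. The Skint5 copy differed at 4 positions and the Olfr857 copy at 9, of which 4 were gaps. A single base can be enough to place a read. The stretches of 50 bases printed next occur 1 time in the genome and are, within each locus, the unique ones closest to the ORF2 of the intact copy, with the differing bases in capitals. The chromosome 10 stretch differs at 1 base, and the Skint5 and Mecom stretches at 2.
Copy on chromosome 10 (chr10:55468264-55468313, plus strand): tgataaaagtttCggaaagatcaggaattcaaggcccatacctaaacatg
Copy near Skint5 (chr4:113742474-113742523, plus strand): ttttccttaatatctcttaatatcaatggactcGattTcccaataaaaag
Copy near Mecom (chr3:29811898-29811947, plus strand): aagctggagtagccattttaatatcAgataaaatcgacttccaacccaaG

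The wide loci had a median width of 6126 bp and were close to one another in sequence. A median of 3.78% of the 50-base stretches (50-mers) of a wide locus occurred once in the genome, the median 50-mer occurred 2798 times, and 55 wide loci had no unique 50-mer at all. An ORF2 frame of at least 1200 codons was kept by 224 wide loci, in 201 of them at exactly 1282 codons, and 192 also kept an ORF1 frame of at least 300 codons. The better preserved copies were the harder ones to measure. The median share of unique 50-mers was 1.59% in the loci with the long ORF2 frame and 5.17% in the others.

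Tandem monomers were found at the 5′ end of 702 wide loci, with a spacing of 208 bp in 454 of them and 201 bp in 176, and with up to 15 copies. The first 500 bases held a median of 29 CpG where monomers were found and 16 where they were not. Of the 3742 shorter loci on the reference, 69 had monomers. The shorter loci had a median width of 716 bp, and 1385 of them (37.0%) had no unique 50-mer.

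Libraries held 19216257 to 33904311 counts over their 6 tables, and values were scaled by TMM over the intervals beside LINE-1 loci. Over exons 11 and 12 of Hells the libraries had 937 counts (WT fibroblasts), 0 (Lsh-/- fibroblasts), 427 (WT embryos) and 0 (Lsh-/- embryos), against 2014 to 6132 over its other exons apart from exon 13. This checks the Lsh-/- labels, and would not tell a WT from a heterozygous control. Markers of fibroblasts were detected in both fibroblast libraries at 184701 (WT) and 138463 (Lsh-/-) counts over 9 genes, which differed in direction (Postn 11555 and 2064, Col3a1 4188 and 9082), and Thy1 was reached by no interval. Markers of other cell types were low there but differed. Those of muscle summed to 2 and 39, the neuronal gene Stmn2 had 2 and 493 and Tubb3 848 and 410, the liver gene Afp had 1 and 45, and blood markers summed to 1 and 3. Between the embryos the liver markers Afp and Alb differed, with 3160 counts in WT and 376 in Lsh-/-, the blood markers summed to 29 and 7, and the neuronal ones to 1980 and 1284. The part of these differences in the L1Md_A values was not tested.

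L1Md_A took up a small share of the reads, and that share was higher without Lsh in fibroblasts. The summed counts were 1499 (WT fibroblasts), 2548 (Lsh-/- fibroblasts), 2816 (WT embryos) and 3224 (Lsh-/- embryos). These were 0.314%, 0.559%, 0.329% and 0.399% of all counts on LINE loci. After scaling, the L1Md_A sum was 1.65-fold higher in Lsh-/- than in WT fibroblasts, with a 95% counting interval of 1.54 to 1.76. The sum in embryos was 1.19-fold higher (1.13 to 1.25). The sum over all LINE loci was 0.925-fold in fibroblasts and 0.981-fold in embryos. Other young subfamilies differed among themselves in fibroblasts, with 2.1-fold (1.95 to 2.25) for L1Md_F, 1.94-fold (1.38 to 2.74) for L1Md_Gf and 1.73-fold (1.69 to 1.77) for L1Md_F2, but 0.13-fold for L1Md_T (44530 to 5994 counts) and 0.2-fold for L1Md_F3 (26683 to 5516). The low sums of L1Md_T and L1Md_F3 were each found in 1 width class only. Wide L1Md_T loci fell from 42996 to 3799 counts. Of the 43 compared singly, however, 30 had a log2 fold change above 1 and 3 below -1. L1Md_T fragments summed 1.39-fold higher and wide L1Md_F3 loci 2.48-fold higher. L1Md_F3 fragments summed to 0.178-fold, with 35 of 86 above 1 and 18 below -1. These counts also enter the sum over all LINE loci. The higher sum of L1Md_A was thus not found in L1Md_A alone.

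Wide loci and shorter fragments both moved in this direction in fibroblasts. The wide loci summed to 400 counts in WT fibroblasts, 769 in Lsh-/- fibroblasts, 698 in WT embryos and 772 in Lsh-/- embryos. The shorter fragments summed to 1099, 1779, 2118 and 2452 counts in the same order. In both width classes the WT fibroblast library had the lowest raw sum of the 4, but these sums are not scaled to depth. The ratio of Lsh-/- over WT in fibroblasts was 1.86 (1.65 to 2.11) for wide loci and 1.57 (1.45 to 1.69) for fragments, and in embryos 1.15 (1.04 to 1.27) and 1.2 (1.13 to 1.27).

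**Figure D1:**
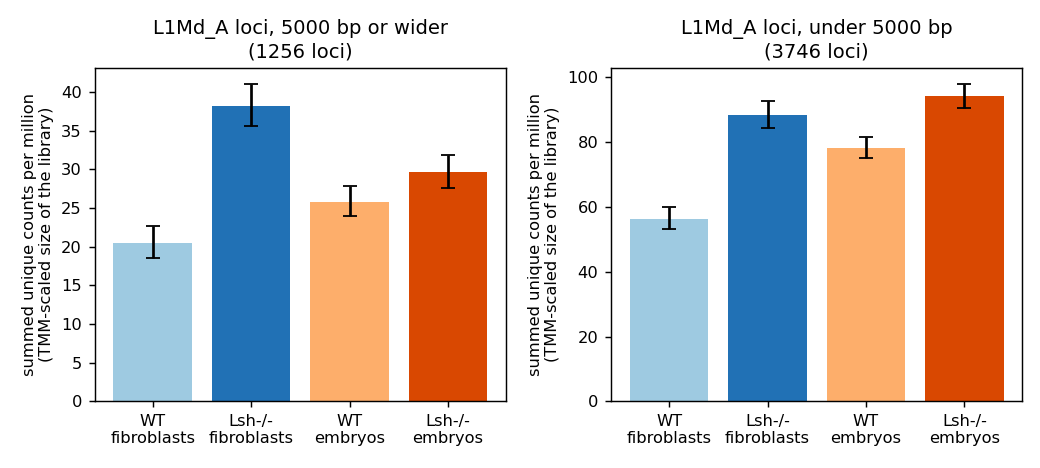
Summed unique counts of L1Md_A loci relative to the scaled library size (CPM, y axes from 0) in the 4 libraries, for wide loci (left) and shorter fragments (right), with 95% Poisson intervals as bars. Wide loci stand at 20.5, 38.2, 25.8 and 29.6 from left to right, and fragments at 56.4, 88.4, 78.3 and 94.1. Libraries were scaled within each tissue, so the bars of fibroblasts and embryos are not on a common scale.

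Read per length, the wide loci were the quieter class. They had 53.4 to 103 counts per Mb of element over the 4 libraries, and the fragments 296 to 661. Only unique reads were counted, and the gap outside genes was smaller per kb of unique sequence. There, WT and Lsh-/- fibroblasts had 0.496 and 1.36 counts on wide loci, and 0.955 and 2.53 on fragments. On the strand of a gene the values were 3.36 and 3.30 against 15.6 and 18.6. The 18 fragments over an exon, where RNA of the gene counts too, held 232 of the 1099 WT fibroblast counts. Most loci that were seen at all were seen by very few reads. Of the wide loci with reads in a library, 83.5% to 88.1% had 1 to 3 counts. Of the 1256 wide loci, 488 had no read on the element in any library, 609 were listed in 1 library and 12 in all 4, and of the fragments 77 were listed in all 4.

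The number of wide loci with a read followed the same pattern as the sums. It was 142 in WT fibroblasts, 295 in Lsh-/- fibroblasts, 266 in WT embryos and 274 in Lsh-/- embryos. For fragments it was 369, 459, 492 and 477. In fibroblasts 93 wide loci were listed in the WT library only and 246 in the Lsh-/- library only, which is 72.6% (Wilson interval 67.6 to 77.0) on the Lsh-/- side, and for fragments the share was 58.3% (54.1 to 62.4). In embryos the shares were 50.9% (46.3 to 55.5) and 48.8% (44.9 to 52.7).

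This shift towards Lsh-/- fibroblasts did not set L1Md_A apart from other wide LINE loci. The same share was 73.4% among wide L1Md_T, 70.8% among wide L1Md_F2, both young subfamilies of LINE-1, and 71.2% among all wide LINE loci other than L1Md_A. Over LINE loci of every width it was 45.7% in fibroblasts and 43.0% in embryos.

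How often a locus was seen moved with how much of it is unique. Wide loci with reads had a median of 5.71% unique 50-mers and those without reads 2.24%. In fibroblasts 20.6% of the wide loci with under 2% unique 50-mers had a read in either library, 43.0% of those with 10 to 25%, and 40.7% of those above that. There were 307 fragments with reads and no unique 50-mer, and whether those reads reached past the edge of the locus was not tested.

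**Figure D2:**
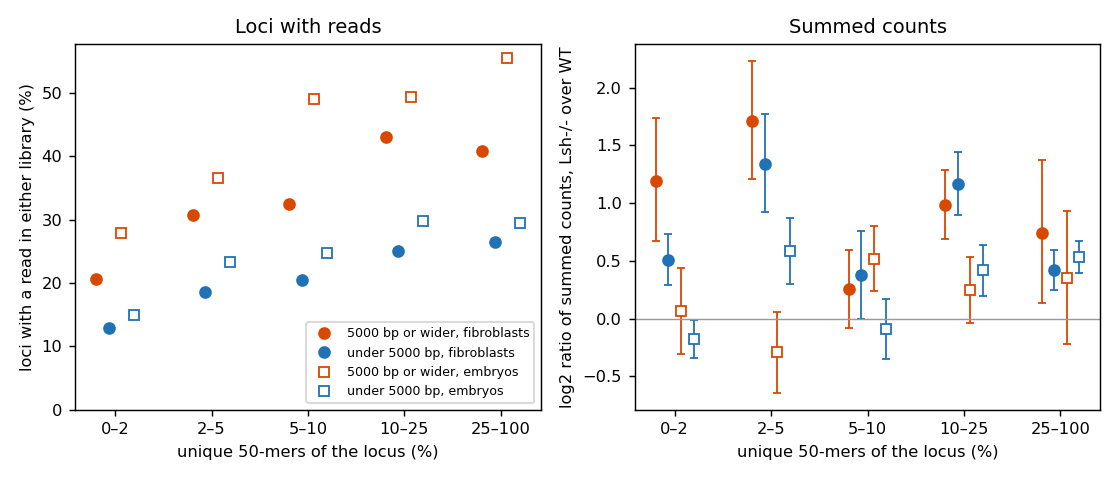
Share of L1Md_A loci with a read in either library of the pair (left) and log2 ratio of summed counts, Lsh-/- over WT, with 95% counting intervals (right), by the share of unique 50-mers of the locus. Wide loci are orange and fragments blue, and filled points are fibroblasts. The share with reads is higher from 10% unique 50-mers on than under 2%, at 43.0% and then 40.7% of wide loci in fibroblasts, while all 10 fibroblast ratios lie above 0, the lowest at 0.26 for wide loci of 5 to 10%, where the intervals of both width classes include 0.

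Single loci were compared where the 2 libraries of a pair had at least 10 counts together, which left 14 wide loci and 61 fragments in fibroblasts and 20 and 88 in embryos, or 141 loci in either tissue. Of these 141, 26 adjoined another L1Md_A piece within 100 bp on the same strand, so that a pair of them can be 1 insertion. The log2 fold change was computed with a prior count of 1/8, and loci past 1 or -1 were called. The second limit of 5 on that scale was passed by loci with 0 counts in 1 library, so a value past it depends on the prior count and is not the size of a change.

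In fibroblasts 39 of the 75 L1Md_A loci lay above 1 (52.0%, 40.9 to 62.9) and 8 below -1 (10.7%). The background over all 14058 LINE loci compared was 24.1% above 1 and 18.2% below -1. By width, 6 of 14 wide loci (42.9%) lay above 1 and 2 below -1, and 33 of 61 fragments (54.1%) lay above 1 and 6 below -1. The median log2 fold change was 0.39 for wide loci (0.40 with loci of 0 counts put at the floor of 3 counts), 1.14 for fragments (1.18) and 0.09 for all LINE loci (0.09). Without the Ptpla copy described later, the median of the wide loci was 0.94. Their median was 6.58 for the 9 loci outside genes, -0.30 for the 7 loci of at least 6000 bp, -0.16 for the 3 loci of at least 50 counts and -0.32 for the 10 loci with no LTR past 5 within 50 kb, so its direction was not settled by 14 loci. Wide LINE loci other than L1Md_A lay above 1 at a like share, 122 of 268 (45.5%, 39.7 to 51.5).

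The scaling moved these shares. Scaled to the total of the 6 tables of a library, 41.6% of all LINE loci lay above 1 and 8.69% below -1. The shares above 1 were then 50% of wide L1Md_A loci and 62.3% of fragments, and those below -1 were 14.3% and 6.56%.

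Past 5 there were 19 of 75 L1Md_A loci (25.3%) against a background of 8.74%, and below -5 there was 1 (1.33%) against 1.04%. All 19 had 0 counts in WT fibroblasts. L1Md_T, with 40 of 110 loci past 5 (36.4%), and L1Md_F2, with 155 of 577 (26.9%), were also above the background. Among wide loci, 5 of 14 L1Md_A (35.7%) and 87 of 268 other LINE loci (32.5%) lay past 5. A share of this kind was therefore not found in L1Md_A alone.

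In embryos calls lay in both directions, with more above 1 than below -1. Of 108 L1Md_A loci, 34 lay above 1 (31.5%, 23.5 to 40.7) against a background of 21.3%, and 25 below -1 (23.1%) against 20.7%. Past 5 there were 8 (7.41%) against 3.09%, and below -5 there were 6 (5.56%) against 2.89%. The median log2 fold change was -0.11 for wide loci (-0.11 at the floor) and 0.05 for fragments (0.05), beside 0.04 for all LINE loci.

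**Figure D3:**
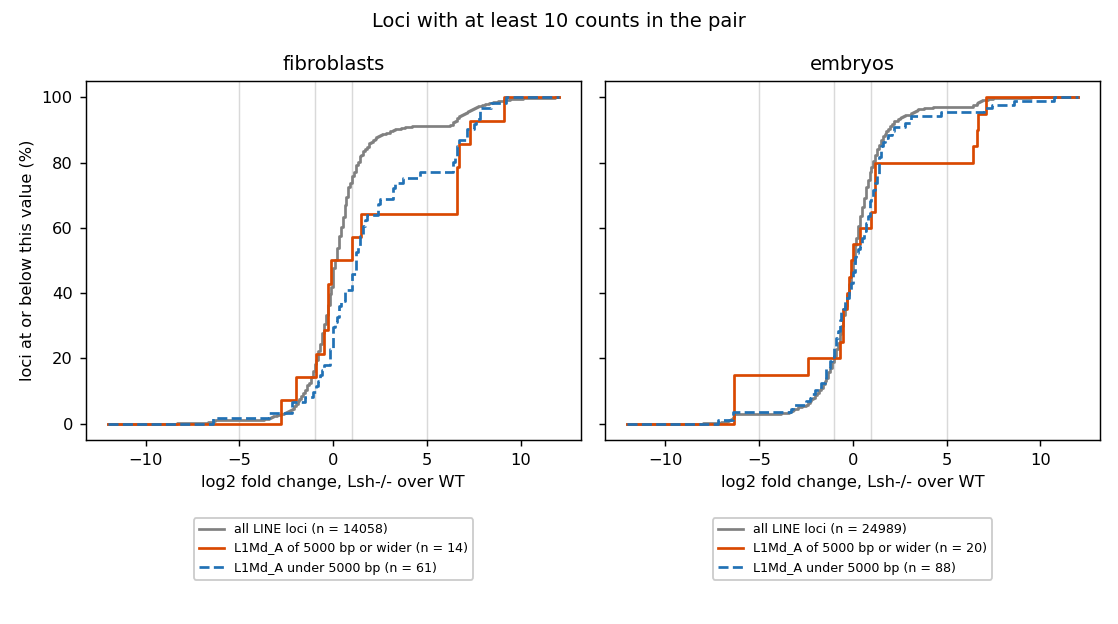
Cumulative share of loci (y axis, percent) at or below each log2 fold change of Lsh-/- over WT (x axis), for all LINE loci (grey), wide L1Md_A loci (orange) and L1Md_A fragments (blue, dashed) with at least 10 counts in the pair. In fibroblasts both L1Md_A curves run below the grey curve between 2 and 5, with 35.7% of wide loci and 23.0% of fragments past 5 where all LINE loci have 8.74%. Wide LINE loci other than L1Md_A, which are not drawn, have 32.5% past 5 there. In embryos the curve of the fragments stays close to the grey one while 20% of the 20 wide loci lie past 5 and 15% below -5.

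Of the few wide loci with many reads, most were read in both genotypes. The copy in Ptpla (chr2:13950777-13956959, on the strand of the gene, in an intron), which encodes an enzyme of fatty acid elongation, had 65 counts in WT fibroblasts, 53 in Lsh-/- fibroblasts, 56 in WT embryos and 106 in Lsh-/- embryos. Its ratio was 0.79 in fibroblasts (0.539 to 1.15) and 1.97 in embryos (1.41 to 2.77). It was the wide locus with the most reads in every library but the Lsh-/- fibroblasts.

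The copy 35027 bp from Mecom, a gene for a transcription factor of blood stem cells (chr3:29809982-29815193), had 51, 47, 28 and 18 counts in the same order, with ratios of 0.892 (0.587 to 1.35) and 0.667 (0.348 to 1.25). The copy near Ttc14 (chr3:33517891-33523911) had 22, 16, 23 and 28, with ratios of 0.704 (0.346 to 1.4) and 1.26 (0.702 to 2.3). All 4 of these intervals include 1. Each of these copies was therefore read in WT cells already, at a level that did not differ beyond counting error.

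The copy with the largest count confined to Lsh-/- fibroblasts among the wide loci lies outside genes at chr10:55464566-55469933, 264170 bp from the nearest gene. It had 0 counts in WT fibroblasts, 66 in Lsh-/- fibroblasts and 0 in both embryo libraries, which is at least 21.3-fold higher with WT at the floor of 3 counts. The piece that continues it on the 3′ side (chr10:55469934-55470928) had 0, 13, 0 and 0 counts. It kept 2 monomers and, of ORF2, a frame of 831 codons.

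The other 4 wide loci past 5 in fibroblasts showed the same on or off pattern at lower counts. The locus near Rlf (chr4:120931551-120936831) had 19 counts in Lsh-/- fibroblasts, at least 6.13-fold higher, and the locus at chr6:10682783-10689004 had 13, at least 4.2-fold higher. The loci at chr5:7893214-7899396 and chr5:60547911-60553280 had 12 each, at least 3.87-fold higher. All 4 had 0 counts in WT fibroblasts and in both embryo libraries. None of the 5 loci lay in an annotated gene and none kept a long ORF2 frame. Both are common among wide loci, of which 70.9% lay outside genes and only 17.8% kept such a frame. Of the 14 wide loci compared in fibroblasts, 9 lay outside genes and 2 kept such a frame.

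The intact copy near Ereg, a growth factor gene, went the other way. It had 17 counts in WT fibroblasts, 4 in Lsh-/- fibroblasts, 14 in WT embryos and 8 in Lsh-/- embryos, a ratio of 0.228 (0.0558 to 0.699) in fibroblasts and 0.593 (0.216 to 1.52) in embryos. The copy in Pak3, which encodes a kinase of neurons (chrX:140033888-140039308), had 15, 2, 5 and 0 counts, a ratio of 0.129 (0.0143 to 0.555) in fibroblasts. These were the 2 wide loci below -1 there. The next lowest, in Zeb1 on chromosome 18, had 15 and 8 counts in fibroblasts, a ratio of 0.516 (0.19 to 1.3).

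**Figure D4:**
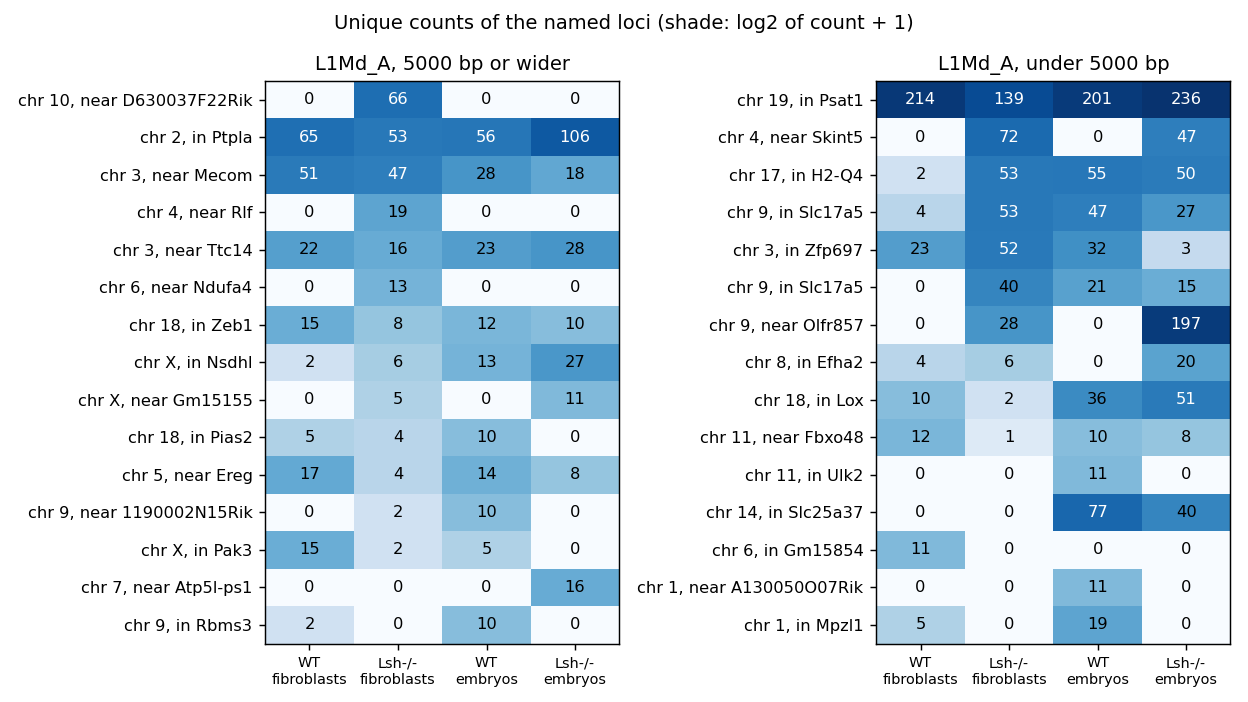
Unique counts in the 4 libraries (columns) for named wide L1Md_A loci (left) and fragments (right), each row labelled by chromosome and the gene that holds the locus or lies nearest, with darker shades for larger counts on a log2 scale. Copies such as the one in Ptpla, with 53 to 106 counts, are dark in all columns, while the chromosome 10 copy, with 66 counts, is dark in the Lsh-/- fibroblast column only.

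Among the fragments, those with the largest counts were of a different kind from one another. A piece of 146 bp over an exon of Psat1, a gene of serine synthesis (chr19:15979055-15979200), had 214, 139, 201 and 236 counts, with ratios of 0.629 (0.504 to 0.782) in fibroblasts and 1.22 (1.01 to 1.48) in embryos. There, RNA of the gene and RNA of the element cannot be told apart. Of the 61 fragments compared in fibroblasts, 7 overlapped an exon.

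A pair of long fragments had reads in the Lsh-/- library and 0 counts in WT in both tissues. The copy 68800 bp from Skint5 (chr4:113740909-113745655), 4747 bp wide, had 0 counts in WT fibroblasts, 72 in Lsh-/- fibroblasts, 0 in WT embryos and 47 in Lsh-/- embryos, at least 23.2-fold higher in fibroblasts and 16.3-fold in embryos. The copy near Olfr857, an olfactory receptor gene (chr9:19544414-19548212), 3799 bp wide, had 0, 28, 0 and 197, at least 9.04-fold and 68.2-fold higher. In the Skint5 copy 63.0% of the 50-mers were unique and in the Olfr857 copy 59.5%, far above the median of the subfamily. Of the 35 fragments compared in both tissues, 2 (5.71%), the copies just named, lay past 5 in both, and 4 (11.4%) lay above 1 in both. Of all 11016 LINE loci compared in both tissues it was 0.971% and 3.6%. Of the 7 wide loci compared in both tissues, 1 lay above 1 in fibroblasts and none in embryos.

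At Slc17a5, which encodes a lysosomal sialic acid transporter, a pair of neighbouring fragments differed between the tissues. The one at chr9:78415811-78416151 had 4, 53, 47 and 27 counts, with ratios of 12.8 (4.73 to 48.8) in fibroblasts and 0.596 (0.357 to 0.978) in embryos. The one at chr9:78416346-78417715, which overlaps an exon, had 0, 40, 21 and 15, at least 12.9-fold higher in Lsh-/- fibroblasts and at a ratio of 0.742 (0.356 to 1.51) in embryos. The WT embryo library was thus well above the WT fibroblast library for both. An IAP long terminal repeat of the type IAPLTR1a_Mm, which had 31 counts in Lsh-/- fibroblasts and none in WT, adjoins the first of them and lies 535 bp from the second.

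Other fragments named by count or fold lay in genes. The fragment in Zfp697 (chr3:98215246-98215607) had 23, 52, 32 and 3 counts, with ratios of 2.19 (1.32 to 3.75) and 0.0973 (0.0191 to 0.311). The fragment over an exon of H2-Q4, an MHC class I gene with near-identical neighbours (chr17:35521299-35521580), had 2, 53, 55 and 50, a ratio of 25.7 (6.76 to 217) in fibroblasts, and held no unique 50-mer, so its counts are uncertain. The fragment in Slc25a37, the mitochondrial iron importer of red cell precursors (chr14:69876086-69876370), was read in embryos alone, with 77 (WT) and 40 (Lsh-/-) counts, and held no unique 50-mer either. The blood markers differed between the embryo libraries as given above, and their part in this value was not tested.

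The lowest fragments in fibroblasts had small counts. The piece in Gm15854, a pseudogene (chr6:129939730-129942198), had 11 counts in the WT fibroblast library and none in the other, at least 3.78-fold lower, and 0 in both embryo libraries. The piece near Fbxo48 (chr11:16855067-16855258) had 12, 1, 10 and 8 counts, a ratio of 0.0807 (0.0019 to 0.545) in fibroblasts. The piece in Lox, a collagen cross-linking enzyme, on chromosome 18 had 10, 2, 36 and 51, a ratio of 0.194 (0.0206 to 0.909) in fibroblasts.

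In embryos the wide loci past 5 had 0 counts in WT and 10 to 16 in Lsh-/-. The locus at chr7:69696757-69701955 had 0, 0, 0 and 16 counts, at least 5.54-fold higher, and the locus near Gm15155 (chrX:152873481-152878660) 0, 5, 0 and 11, at least 3.81-fold higher. On the other side, the loci in Pias2 on chromosome 18, at chr9:93709018-93714511 and in Rbms3 (chr9:116890631-116897781) had 10 counts each in WT embryos and 0 in Lsh-/-, at least 3.21-fold lower. The copy in Nsdhl, a gene of cholesterol synthesis (chrX:70177522-70183777), had 2, 6, 13 and 27 counts, a ratio of 2.16 in embryos (1.08 to 4.55). Small counts of this kind occurred in both directions.

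Among fragments in embryos, the piece in Efha2 (chr8:41459027-41460019) had 4, 6, 0 and 20 counts, at least 6.92-fold higher in Lsh-/- embryos. The pieces of the lowest value were those in Mpzl1 (chr1:167529951-167530852) with 5, 0, 19 and 0 counts, at least 6.1-fold lower in Lsh-/- embryos, and in Ulk2 (chr11:61643116-61643199) and at chr1:139879473-139880726 with 11 and 0 each, at least 3.53-fold lower.

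Fibroblast values differed by where a locus lies. The 890 wide loci outside annotated genes summed to 552 counts in Lsh-/- fibroblasts and 202 in WT, a log2 ratio of 1.4 (1.17 to 1.64). The 122 on the strand of a gene that holds them summed to 125 and 127, a log2 ratio of -0.07 (-0.44 to 0.30). Of the 125 and 127 counts, the Ptpla copy gave 53 and 65, the Pak3 copy 2 and 15 and the Zeb1 copy 8 and 15. The ratio without these copies was not computed. The 235 on the opposite strand summed to 90 and 70, a log2 ratio of 0.32 (-0.15 to 0.79). Fragments showed the same order, with 1.36 (1.17 to 1.55) outside genes, 0.21 (0.02 to 0.39) on the strand of the gene and 0.23 (0.02 to 0.45) on the opposite one. The intervals outside genes and inside genes did not overlap in either width class, but they do not cover the spread between loci. In embryos the order was another one for wide loci, with log2 ratios of 0.28 (0.09 to 0.48) outside genes, 0.34 (0.02 to 0.67) on the strand of the gene and -0.23 (-0.59 to 0.12) on the opposite one. Fragments outside genes had 0.71 (0.56 to 0.85) there. Strand in the counting of reads was not stated, so sense and antisense RNA of a locus cannot be told apart.

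Wide loci with monomers, the promoter repeats, had 370 counts in Lsh-/- fibroblasts and 120 in WT, a log2 ratio of 1.58 (1.28 to 1.89). Those without monomers had 397 and 279, a log2 ratio of 0.46 (0.24 to 0.69). Of the 370 and 120 counts, 66 and 0 came from the chromosome 10 copy, and a ratio without that copy was not computed. The classes also differed in the median share of unique 50-mers, at 2.30% with monomers and 7.59% without. The fragments with monomers had 38 and 5 counts, a log2 ratio of 2.88 (1.53 to 4.58). In embryos the wide classes had log2 ratios of 0.17 (-0.07 to 0.42) and 0.22 (0.02 to 0.41). The wide loci with the long ORF2 frame had 56 and 50 counts in fibroblasts, a log2 ratio of 0.12 (-0.46 to 0.70), which includes 0. In the others it was 0.98 (0.79 to 1.17). Of the 56 and 50 counts, 4 and 17 came from the intact copy near Ereg, and the ratio without it was not computed.

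The value on chromosome X did not differ from that on autosomes beyond the counting error. For wide loci in fibroblasts the log2 ratios were 1.07 (0.42 to 1.74) on X and 0.89 (0.70 to 1.07) on autosomes. For fragments they were 1.06 (0.50 to 1.63) and 0.63 (0.52 to 0.74).

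Loci near an LTR retrotransposon that was itself past 5, as found in the same libraries, had the highest ratios of the groups compared. The wide L1Md_A loci with such an LTR within 50 kb summed to 171 counts in Lsh-/- fibroblasts and 9 in WT, a log2 ratio of 4.20 (3.24 to 5.35). The other 1155 summed to 598 and 391, a log2 ratio of 0.57 (0.38 to 0.75). For fragments the log2 ratios were 3.66 (3.09 to 4.30) near such an LTR and 0.38 (0.26 to 0.49) elsewhere. In embryos they were 1.19 (0.27 to 2.18) and 0.17 (0.02 to 0.32) for wide loci, and 2.10 (1.71 to 2.50) and 0.14 (0.05 to 0.22) for fragments. Both width classes in both tissues were above 0 without these loci too. For wide loci in embryos the value with them was 0.20, so that leaving them out moved it little.

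**Figure D5:**
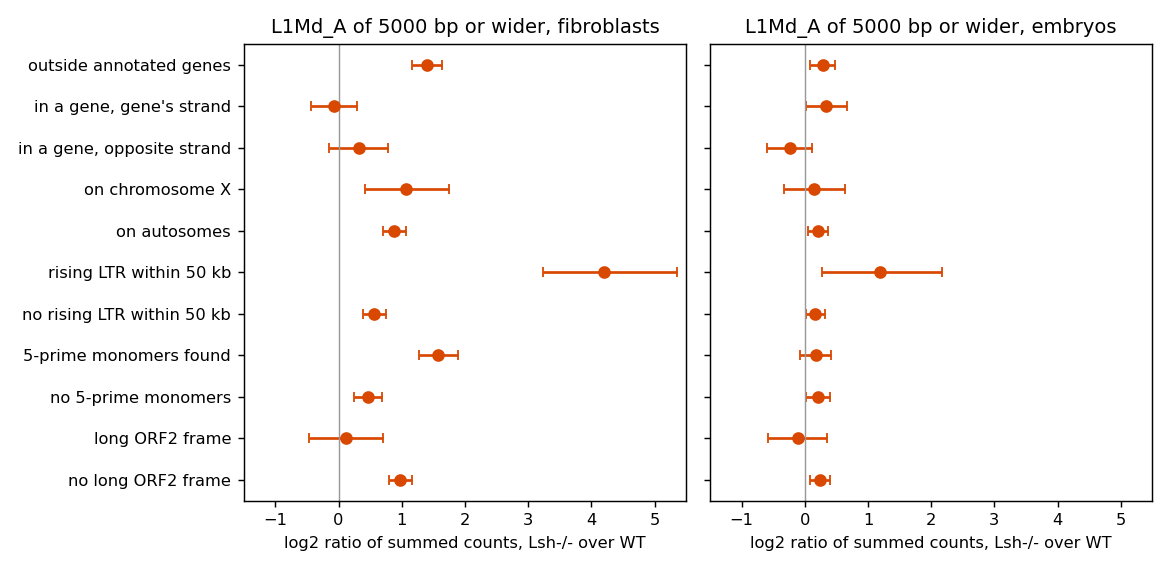
Log2 ratio of summed counts, Lsh-/- over WT (x axes), of wide L1Md_A loci in fibroblasts (left) and embryos (right), by place, neighbouring LTR past 5 (rising LTR), monomers and ORF2 frame (rows), with 95% counting intervals as bars. In fibroblasts the loci near a rising LTR, at 4.20, stand far to the right of all other rows, and those on the strand of a gene, at -0.07, and with the long ORF2 frame, at 0.12, include 0.

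The neighbourhood was shared with other LINE loci that were called. Of the 19 L1Md_A loci past 5 in fibroblasts, 12 (63.2%) had such an LTR within 50 kb and 2 (10.5%) lay in a gene. Of all 1228 LINE loci past 5, 607 (49.4%) had such an LTR and 208 (16.9%) lay in a gene. Of the loci compared, 50.7% of L1Md_A and 78.8% of all LINE loci lay in a gene. Such an LTR was near 1 (2.78%) of the 36 L1Md_A loci not above 1, and near 1.63% of all LINE loci not above 1. For the chromosome 10 copy the LTR was an IAPLTR2b 23923 bp away on the other strand, with 37 counts in Lsh-/- fibroblasts, and for the Olfr857 copy an IAPLTR1_Mm 14576 bp away. Whether a transcript runs from such an LTR into the L1Md_A locus was not tested.

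The study's methods describe the intervals beside the loci as equal in width to the element and 10 kb away. The counts fit an interval of 1 kb for every width. This was checked in the WT embryo library with neighbouring LINE loci of at least 20 counts. For elements under 500 bp the flank count was at least that of the neighbour for all 1002 neighbours 10 to 11 kb away. It was so for 84.9% of those 9 to 10 kb away and 87.7% of those 11 to 12 kb away. For elements of 5000 bp or wider it was 5 of 5 at 10 to 11 kb and 13 of 17 at 11 to 12 kb. Flanks are therefore read here as 1 kb from 10 to 11 kb away on either side. They were read along with the elements of the highest values in fibroblasts. The 5 wide loci past 5 had 87 flank counts in Lsh-/- fibroblasts and 0 in WT, and each of the 5 had reads in a flank of the Lsh-/- library. The 14 fragments past 5 had 268 and 26 flank counts, a log2 ratio of 3.32 (2.74 to 3.96), with reads in flanks of the Lsh-/- library only at 9 of them. The 6 wide loci within 1 of 0 had 148 and 189 flank counts, a log2 ratio of -0.40 (-0.72 to -0.08). The flanks of all 33 fragments above 1 had 6969 and 7473 counts, a log2 ratio of -0.15 (-0.19 to -0.10). In embryos the flanks of the 4 wide loci past 5 had 1186 and 1176 counts, a log2 ratio of 0.07 (-0.05 to 0.18), and those of the 4 fragments past 5 had 676 and 324, a log2 ratio of 1.12 (0.92 to 1.31).

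Single loci showed it on one side or both. The chromosome 10 copy had 33 counts in the lower flank and 3 in the higher one in Lsh-/- fibroblasts, and 0 in both in WT. The Skint5 copy had 11 and 4 against 0 and 0. The Olfr857 copy had 60 and 6 in Lsh-/- fibroblasts against 1 and 0 in WT, and 294 and 23 in Lsh-/- embryos against 1 and 0 in WT. Reads in Lsh-/- were therefore not confined to the annotated element at these loci. Whether the flank reads come from the same RNA as the element or from a neighbouring repeat was not tested. For IAP loci, the study ascribes a number of raised intervals to an overlap with another repeat, often an IAP LTR.

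Over all L1Md_A loci the flanks shifted little. In fibroblasts the median log2 fold change was 0.19 on the lower-coordinate side (503 intervals of at least 10 counts; 0.20 at the floor) and 0.18 on the higher one (519; 0.18 at the floor), beside 0.09 on each side for all LINE loci. Above 1 lay 136 (27.0%) of the lower and 137 (26.4%) of the higher L1Md_A flanks, against backgrounds of 18.6% and 19.0%. Past 1 in either direction lay 213 (42.3%) and 212 (40.8%), against 32.2% and 32.5%. Flanks of wide loci lay above 1 more often, 26 of 71 (36.6%) and 26 of 72 (36.1%). In embryos the medians were -0.03 and 0.05, with 16.2% and 18.2% above 1 against backgrounds of 14.2% and 14.4%, and 31.3% and 30.5% past 1 in either direction against 28.6% on each side.

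The higher sum in Lsh-/- fibroblasts was also found without the loci of the largest counts there. Without the 3 loci of the largest Lsh-/- count the ratio was 2.06 (1.78 to 2.38) for wide loci and 1.67 (1.53 to 1.81) for fragments. The 3 wide loci were the chromosome 10, Ptpla and Mecom copies, and the last 2 also took 65 and 51 WT counts with them. A ratio without the 5 wide loci past 5, which had 122 counts in Lsh-/- fibroblasts and 0 in WT, was not computed. The wide loci with under 10 counts in the pair, none of which was compared singly, had 468 counts in Lsh-/- fibroblasts and 191 in WT, a ratio of 2.37 (2 to 2.82), and fragments of this kind 757 and 548, a ratio of 1.34 (1.2 to 1.5). In embryos the wide loci without the Ptpla copy had a ratio of 1.08 (0.965 to 1.2), which includes 1, and the fragments without the 3 loci of the largest Lsh-/- counts, the Olfr857 copy among them, a ratio of 1.09 (1.02 to 1.16).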

How the data were processed

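The authors made strand-specific paired-end dUTP libraries, mapped reads to mm9 with TopHat v1.4.0 allowing 0 mismatches, kept unique reads, and joined them to the repeatmasker annotation. Deposited are raw counts, with 1 value for each repeat locus or interval beside it, in 6 tables for each of 4 libraries. Whether a pair counts once, and the strand rule, are not given in the sources used here. A locus that a library does not list was given 0. Unlisted loci are not analysed here.

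Members, lists and limits were chosen with earlier results of these data known. Starts, counted from 0 in the tables, are printed from 1. Of the L1Md_A loci, 7 lie on chromosomes not used for sequence or genes (GENCODE vM1). TMM factors (edgeR 4.0.16, R 4.3.3) were taken over the flanking intervals of L1 loci, giving effective sizes of 19481559 and 20118423 (WT and Lsh-/- fibroblasts) and 27051956 and 26054891 (embryos). Ratios of sums have 95% Clopper-Pearson intervals, sums Poisson and shares Wilson intervals (scipy 1.17.1). No genotype was replicated, so none was tested. Sequences were read with pysam 0.24.0 and compared with edlib. Monomers are tandem copies spaced 190 to 225 bp at 75% identity. Named loci are, per tissue and width class, the 4 with the largest counts, the 3 highest and the 3 lowest log2 fold changes. Wide loci of 50 or more counts, those past 5 in fibroblasts, and the 3′ piece on chromosome 10 were added after their values were seen, and 1 named locus is not reported here. The computation was tested on simulated data. Alternatives in scaling (DESeq2 1.42.0 size factors, table totals), prior count, count minimum, fold limit, chromosomes, genes and width limit were tried. The DESeq2 size factors came out at 1 for every library, so that setting left the counts unscaled.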

Additional observations from a re-analysis of the deposited data

Results flagged for a closer look

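At 3 fragments the counting intervals of fibroblasts and embryos lay on opposite sides of no change. The difference between the tissues was not tested, since each group is 1 library. The log2 ratio of Lsh-/- over WT at the Psat1 exon piece was -0.67 in fibroblasts and 0.29 in embryos. This opposite direction was lost with the total of all 6 tables as the scale, at 0.0098 (-0.31 to 0.32) in fibroblasts. It was also lost with DESeq2 size factors, which left the counts unscaled, at 0.23 (-0.05 to 0.51) in embryos. At the piece in Zfp697 it was 1.13 and -3.36. At the first of the pieces in Slc17a5 it was 3.68 and -0.75. For both of these the intervals kept to opposite sides under all 4 scalings.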

How the results depend on the processing

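Of 224 values recomputed for the 20 summary results of the elements and flanks under other settings, 182 stayed within the 95% interval of the reported value, 42 moved outside it and 0 turned sign where that interval excluded no change (medians whose interval includes 0 turned sign: that of wide loci in fibroblasts reached -0.32, that of wide loci in embryos 0.75, that of embryo fragments -0.083 and that of the lower embryo flank 0.049). All 40 recomputed log2 ratios of sums stayed above 0, those on unscaled counts (DESeq2 size factors of 1) among them. The cause of the other moves was not tested.

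With the total over all 6 tables as the scale, every fibroblast value shifts by 0.68 (the median of all LINE loci then is 0.76). The wide and fragment sums gave 1.58 and 1.33, the median of fragments 1.80, and the flank medians 0.87 and 0.86. The LINE table total shifts fibroblast values by 0.11, and gave 0.76 for the fragment sum and 0.31 and 0.29 for the flanks. In these 2 settings 41.6% and 26.4% of all LINE loci lie above 1 and 8.69% and 16% below -1. Outside genes the fibroblast sums were 1.4 and 1.36, the fragment median 1.92 and the flank medians 0.50 and 0.28, and in embryos the fragment sum was 0.71 and the lower flank 0.049. At 50 counts or more, the wide sum was 0.47 in fibroblasts and 0.82 in embryos, the embryo fragment sum 0.44 and the fibroblast fragment median 3.64, with 80.0% above 1. In embryos 0.0% of wide loci and 9.09% of fragments were then above 1, and 0.0% below -1 in every class. Counting every listed locus put 36.0% of fibroblast fragments, 46.1% of wide embryo loci and 44.7% of embryo fragments below -1, 44.2% of the last above 1, and the lower fibroblast flank at 0.091. At the limit of 5, the fibroblast fragments had 23.0% above and 1.64% below, wide loci 0.0% below, and embryo fragments 4.55% and 3.41%. At 6000 bp the wide fibroblast sum was 0.59.

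These settings were added after the data were seen. Without loci near an LTR past 5, the fibroblast sums were 0.57 and 0.38, with 20% of wide loci above 1, and the embryo fragment sum 0.14. Without the Psat1 piece the fibroblast fragment sum was 0.84. The prior count and minimum do not enter sums, and the width limit does not enter flanks.

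With 1 library per group, leaving out a replicate could not be run. No paired analysis was possible because the groups share 1 replicate number. Unique reads limit what can be seen: the copies with the best preserved frames have the fewest unique bases, and most wide loci were counted from 1 to 3 reads.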
